A study of Mus musculus and Rattus norvegicus with 32 samples.

Results

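The apolipoproteins described here were 8 genes, Apoa1, Apoa2, Apoa4, Apob, Apoc1, Apoc3, Apoe and Apoh, followed in mouse and rat liver after trichloroethylene (TCE), a chlorinated solvent. They were chosen by symbol: a probe set was taken where its annotation gave exactly 1 gene symbol and that symbol was one of the 8. The mouse array held 9 such probe sets for 7 of the genes, out of 12422 probe sets and 8251 genes. Apoc3 had no mouse probe set with that single symbol. The rat array held 17 probe sets for all 8 genes, out of 8740 probe sets and 4736 genes. Apoa4 was set against the others. The genes were proposed with the responses to TCE already known, so their values are given as a description, with standard errors and without p-values. Where a member is said to pass a threshold, that too is description and no test of its response.

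The study dosed male B6C3F1 mice and male SD rats by oral gavage with TCE at 1500 mg/kg in corn oil, or with corn oil alone. There were 8 groups of 4 arrays: mice given TCE once and mice given oil once, both 8 weeks old; mice given TCE daily for 14 days and mice given oil daily for 14 days, both 10 weeks old; and the same 4 groups of rats. Every liver was collected 18 h after the final gavage, under diethyl ether anaesthesia. RNA selected for polyA tails was hybridised to Affymetrix GeneChips, 1 array per sample. Whether each array stood for its own animal is not stated for every sample, and p-values may reflect technical spread between arrays only. Whole liver was used, so fewer cells of a type and less RNA per cell cannot be told apart.

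Apolipoproteins are the protein part of lipoproteins, the particles that carry lipid through plasma. Apob is the structural protein of chylomicrons and very-low-density lipoproteins, built into the particle as lipid is loaded onto it in the endoplasmic reticulum. Apoa1 and Apoa2 are the main proteins of high-density lipoproteins, and Apoc1, Apoc3 and Apoe move between particles and govern lipolysis and uptake. Apoa4 is made in intestine and, in rodents, also in liver, where its mRNA is known to rise with hepatic fat loading and fasting. In the mouse, Apoa1, Apoc3, Apoa4 and Apoa5 follow each other on chromosome 9 in the order of the RefSeq gene table. The 300 bases around the annotated start (250 before, 50 after, RefSeq, GRCm38.p6) are shown for Apoa4 and Apoa1, which share that cluster, and for Apob, the member with the lowest mouse change after repeated dosing. The table held such sequences for 6 of the 8 genes, and the capitals mark matches to the nuclear receptor motifs given below. Apoa4 lies at chr9:46240594-46240893, Apoa1 at chr9:46228380-46228679 and Apob at chr12:7977427-7977726, all on the plus strand.
Apoa4: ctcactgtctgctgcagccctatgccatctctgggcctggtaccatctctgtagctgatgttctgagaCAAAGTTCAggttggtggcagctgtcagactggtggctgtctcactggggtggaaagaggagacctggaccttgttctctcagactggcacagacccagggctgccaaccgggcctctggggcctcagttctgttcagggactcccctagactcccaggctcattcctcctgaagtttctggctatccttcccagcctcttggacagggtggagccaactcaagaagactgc
Apoa1: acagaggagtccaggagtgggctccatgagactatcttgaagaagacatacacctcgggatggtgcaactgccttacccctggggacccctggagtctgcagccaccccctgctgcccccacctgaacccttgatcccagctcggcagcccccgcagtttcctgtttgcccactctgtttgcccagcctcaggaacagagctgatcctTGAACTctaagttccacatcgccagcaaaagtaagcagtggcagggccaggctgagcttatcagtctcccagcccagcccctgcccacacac
Apob: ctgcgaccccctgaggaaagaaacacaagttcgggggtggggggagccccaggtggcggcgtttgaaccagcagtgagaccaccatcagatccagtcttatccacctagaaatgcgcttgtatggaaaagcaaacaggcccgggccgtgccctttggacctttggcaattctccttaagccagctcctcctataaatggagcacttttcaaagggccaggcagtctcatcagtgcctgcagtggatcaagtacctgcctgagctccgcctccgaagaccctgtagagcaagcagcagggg
The nuclear receptor motifs were searched on both strands. They were AGGTCA and AGTTCA, short sequences bound by nuclear receptors such as Ppara, and CAAAGTTCA, a form bound by Hnf4a, the nuclear receptor of hepatocytes. They were picked with the sequences in view. The Apoa4 window held 1 CAAAGTTCA at position -182 from the start, which contains the AGTTCA at position -179. That longer motif occurred in 0.390% of 32851 mouse promoter windows of the same length. The Apoa1 window held 1 AGTTCA, read on the minus strand at position -42, and AGTTCA occurred in 14.0% of the windows. AGGTCA, found in 16.3% of them, was in none of these 3 windows, and the Apob window held none of these nuclear receptor motifs. The share of windows was also counted for TATAA, which occurred in 24.9% of them. Matches to it were left without capitals, and the Apob window holds it.

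Values are ratios. Each deposited value is a probe set's signal over its median in the matching 4 oil arrays (same species, same schedule), so 1 is the oil median, and levels of different genes cannot be compared. The same division leaves no level by which hepatocyte markers could be called present or absent. Changes are log2(TCE/oil) with the standard error (SE) of a limma fit over the 16 arrays of a species.

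Apoa4 was high on every array of mice given a single dose of TCE. Its ratio was 6.81, 4.395, 3.84 and 3.001 on the 4 TCE arrays, against 0.844, 0.900, 1.36 and 1.10 on the 4 oil arrays. The lowest TCE array lay above the highest oil array, and the groups did not overlap. The change was 2.06 ± 0.30 on the log2 scale, or 4.17-fold, and ranked 55 from the top among 12422 mouse probe sets. After 14 daily doses the same probe set read 0.940, 0.375, 0.504 and 0.492 on TCE arrays, against 0.842, 1.42, 0.952 and 1.05 on oil arrays. The TCE arrays were now low, except the first, which lay inside the oil range. The change was -0.94 ± 0.30, and the difference between the schedules, 14 doses minus 1 dose, was -3.00 ± 0.42.

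In rats Apoa4 was not high on any TCE array at either schedule. A single dose gave 0.717, 0.659, 0.521 and 0.501 on TCE arrays, against 0.949, 1.05, 0.633 and 1.19 on oil arrays, a change of -0.65 ± 0.32 with overlapping groups. After 14 doses the TCE arrays read 0.419, 0.207, 0.219 and 0.408, against 1.08, 1.12, 0.477 and 0.921 on oil arrays. All 4 TCE arrays lay below all 4 oil arrays, the change was -1.52 ± 0.32, or 2.88-fold lower, and it ranked 147 from the bottom among 8740 rat probe sets. The schedules differed by -0.87 ± 0.45 in the rat. Over the 3056 genes measured in both species, the Apoa4 change in mouse minus that in rat was 2.71 ± 0.44 after 1 dose and 0.58 ± 0.44 after 14.

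**Figure D1:**
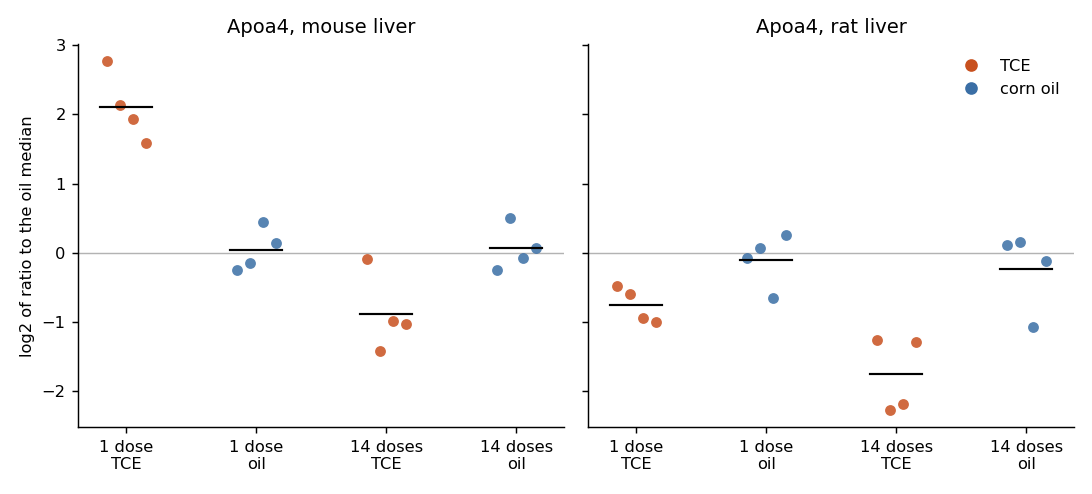
Apoa4 on each array, as log2 of the ratio to the oil median (y axis), by schedule and treatment (x axis), in mouse (left) and rat (right). Points are arrays, 4 per group, and bars are group means. Mouse TCE arrays after 1 dose lie between 1.59 and 2.77, above every oil array, while rat TCE arrays after 14 doses lie between -2.27 and -1.26, below every oil array.

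The 3′ to 5′ balance of control transcripts is given beside these values, since it differed between TCE and oil arrays in some groups. The Gapdh difference is the log2 ratio of the 3′ control probe set minus that of the 5′ one. Both are ratios to the oil median, so it is relative to oil and gives no absolute balance. It was above 1 on 9 TCE arrays and 1 oil array, a sign of RNA or cDNA more shortened than at the oil median. Such arrays are said below to carry the loss. In mice given 1 dose the difference averaged 1.51 on TCE arrays and -0.03 on oil arrays (two-sided exact permutation p = 0.0571, where 0.0286 is the smallest that 4 against 4 arrays can give). The single TCE array of that group without the loss, at 0.09, had an Apoa4 ratio of 4.395, within the range of the other 3. After 14 doses the mouse means were 1.04 and 0.25 (exact p = 0.371), and there Apoa4 split with the loss. The TCE array without it, at -0.36, was the one with an Apoa4 ratio of 0.940, and the 3 arrays with it had ratios from 0.375 to 0.504. With the Gapdh difference as a covariate, which keeps every array, the change in Apoa4 after 14 doses was -0.71 in place of -0.94. Leaving out the arrays above 1 leaves only the TCE array without the loss. The Apoa4 change after 14 doses was then -0.26, a value with no replicate behind it. The same comparison of beta-actin gave 0.74 on TCE arrays and -0.02 on oil arrays after 1 dose (exact p = 0.0286) and 0.64 and -0.08 after 14 (exact p = 0.0571). In rats given 1 dose the Gapdh means were 0.26 on TCE arrays and -0.04 on oil arrays (exact p = 0.886) and those of beta-actin 0.14 and 0.08 (exact p = 0.857), and 1 TCE array lay above 1 for Gapdh. After 14 doses the rat Gapdh means were 1.204 with TCE and 0.12 with oil (exact p = 0.0571), and the beta-actin means 0.64 and -0.07 (exact p = 0.229). Rat Apoa4 after 14 doses did not split this way: the 2 TCE arrays without the loss read 0.419 and 0.207 and the 2 with it 0.219 and 0.408.

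**Figure D2:**
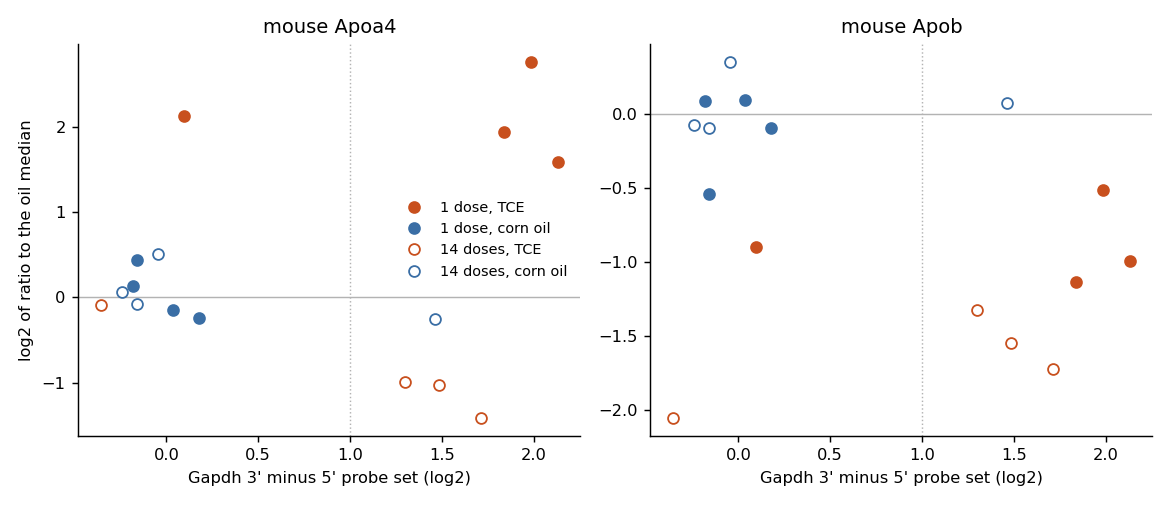
Mouse Apoa4 (left) and Apob (right) as log2 of the ratio to the oil median (y axis) against the Gapdh 3′ minus 5′ difference of the same array (x axis, log2), 1 point per array. Filled points are 1 dose and open points 14 doses, and the dotted line marks a difference of 1. For Apob the 14-dose TCE array left of the line has the lowest value of all, -2.05, whereas for Apoa4 the 14-dose TCE array left of the line lies at -0.09, near the oil arrays.

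Measured within each array, Apoa4 stood apart from the rest of the family after a single dose in mice. Its log2 ratio minus the median of the other members averaged 2.49 ± 0.46 on TCE arrays, against 0.02 ± 0.38 on oil arrays (SD, n = 4 each), with no overlap. After 14 doses it averaged -0.49 ± 0.52 on TCE arrays and 0.07 ± 0.38 on oil arrays, and the groups overlapped. In rats the same difference was -0.41 ± 0.27 with TCE and -0.09 ± 0.47 with oil after 1 dose, again overlapping. After 14 doses it was -1.62 ± 0.60 with TCE and -0.22 ± 0.58 with oil in rats, where 1 oil array, at -1.06, lay inside the TCE range of -2.16 to -0.95.

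Among all the members, 1 mouse gene was called higher and 3 lower after 1 dose, at a limma adjusted p under 0.05, out of 7. Of all 8251 mouse genes, 4.74% were called higher and 4.57% lower. After 14 doses 0 members were called higher (0 also at an unadjusted p under 0.05) and 2 lower, with 2.39% and 9.42% of all genes as background. In rats 0 of 8 members were called in either direction after 1 dose (1.16% of 4736 genes higher and 0.528% lower), although 2 passed an unadjusted p of 0.05, both lower. After 14 doses 0 rat members were called higher and 1, Apoa4, lower (2.32% and 0.633% of all genes). These gene counts use the probe set that stands for each gene, which for rat Apob was rc_AA997806_at. Of the other rat probe sets, 3 of Apob passed the same threshold after 1 dose, all higher. No share of all genes was counted at an unadjusted p, so the unadjusted counts here and below have no background beside them. Since these contrasts were known when the genes were proposed, nothing is read from the counts.

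Centring each array on its median changed the split of calls: it gave 1 higher and 1 lower member in mice after 1 dose and 0 and 1 after 14, and 0 and 1 in rats after 14 doses. Over all mouse genes the same centring gave 551 higher and 261 lower calls, in place of 391 and 377, after 1 dose, and 341 and 379, in place of 197 and 777, after 14. For rats it gave 37 higher and 65 lower calls, in place of 55 and 25, after 1 dose. Quantile normalization left few calls over all genes. In mice it gave 35 higher and 11 lower after 1 dose and 6 and 1 after 14. In rats it gave 1 and 0 after 1 dose and 3 and 0 after 14. The median change of all genes that centring removes was -0.08 and -0.16 in mice after 1 and 14 doses, and 0.12 and 0.04 in rats.

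The other members mostly lay slightly under the oil median. Without Apoa4 their median change was -0.41 and -0.36 in mice after 1 and 14 doses, and -0.30 and -0.18 in rats. With Apoa4 included, 5 of 7 genes were below 0 in mice after 1 dose, also after centring or quantile normalization, and 7 of 7 after 14 doses (6 after centring, 5 after quantile normalization). In rats 8 of 8 were below 0 after 1 dose under all 3 scalings, and 7 of 8 after 14 doses (7 after centring, 6 after quantile normalization). Of the probe sets, 1 of 9 lay wholly above the oil arrays and 3 wholly below in mice after 1 dose, where 17.6% of all probe sets did not overlap. The mouse counts after 14 doses were 0 and 3, beside 17% of all probe sets. In rats 3 of 17 lay wholly above and 3 below after 1 dose, beside 12.5%, and 2 and 3 after 14 doses, beside 12.3%.

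**Figure D3:**
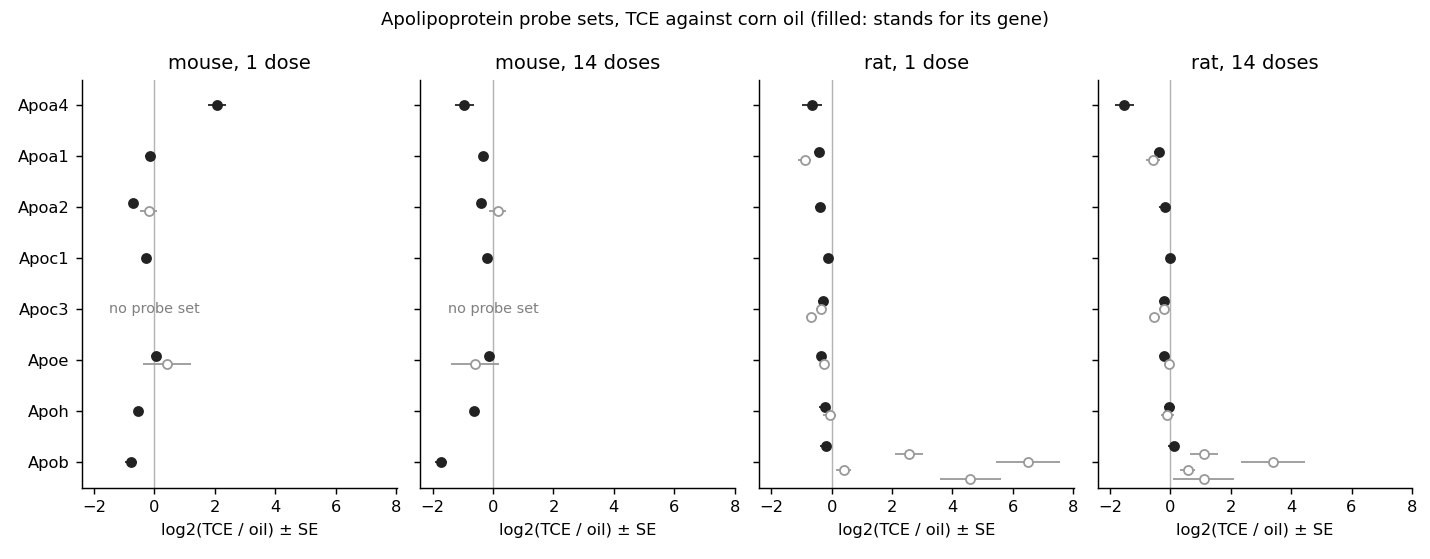
Change of every apolipoprotein probe set, log2(TCE/oil) with its SE (x axis), by gene (y axis), in the 4 comparisons of species and schedule. Filled points stand for their gene (the probe set with the smallest spread within groups) and open points are its other probe sets. Mouse Apoa4 after 1 dose lies at 2.06, and among the open points 3 rat Apob probe sets after 1 dose lie at 2.56, 4.59 and 6.50.

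Apob had the lowest change of the mouse members at both schedules. A single dose gave 0.702, 0.537, 0.456 and 0.503 on TCE arrays, against 0.935, 1.07, 0.687 and 1.07 on oil arrays, and the highest TCE array lay just inside the oil range. The change was -0.77 ± 0.20. After 14 doses the TCE arrays read 0.241, 0.303, 0.400 and 0.343, against 1.05, 1.28, 0.935 and 0.948 on oil arrays. Every TCE array was under every oil array, with a change of -1.72 ± 0.20, or 3.30-fold lower, ranked 248 from the bottom of 12422. The change after 14 doses was lower than that after 1 dose by a difference of -0.95 ± 0.29. The TCE array without the Gapdh 5′ loss had the lowest ratio, 0.241, and without the arrays above 1, which leaves that TCE array alone, the change was -2.11.

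In rats the 5 probe sets annotated as Apob did not move together, and the difference between them was the largest inside the family. The probe set with the smallest spread, rc_AA997806_at, read 0.782, 0.726, 0.902 and 1.09 on TCE arrays, against 1.04, 0.962, 0.875 and 1.11 on oil arrays after 1 dose. Its changes were -0.20 ± 0.18 after 1 dose and 0.12 ± 0.18 after 14, with overlapping groups at both schedules. M27440_at lay between 0.879 and 1.95 with TCE and between 0.953 and 1.46 with oil after 1 dose (0.40 ± 0.25), and after 14 doses, at 0.57 ± 0.25, its TCE arrays of 1.27 to 1.52 lay just above the highest oil array of 1.23.

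The remaining rat Apob probe sets were among the highest of the whole rat array after a single dose. M21842_at read 132, 181, 59.5 and 92.1 on TCE arrays, against 1.26, 0.739, 0.484 and 4.39 on oil arrays. Its change of 6.50 ± 1.05 ranked 1 from the top among 8740 probe sets. U53873cds_at read 40.5, 56.9, 12.2 and 27.6 on TCE arrays, against 0.944, 0.762, 3.05 and 1.06 on oil arrays, and its change of 4.59 ± 1.01 ranked 2. M14952mRNA_at read 6.10, 9.83, 5.84 and 7.10 on TCE arrays, against 3.62, 0.598, 1.23 and 0.765 on oil arrays, a change of 2.56 ± 0.48, ranked 28. In all 3 probe sets every TCE array exceeded every oil array, the second TCE array was the highest and the third the lowest.

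The same probe sets were less high after 14 doses. M21842_at read 13.2, 11.1, 1.51 and 16.3 on TCE arrays, against 0.15, 4.72, 1.76 and 0.235 on oil arrays, and the groups overlapped at a change of 3.40 ± 1.05. U53873cds_at read 4.03, 2.50, 0.413 and 2.23 with TCE, against 0.238, 5.997, 1.76 and 0.171 with oil, for a change of 1.11 ± 1.01. M14952mRNA_at read 1.73, 4.87, 1.44 and 1.97 with TCE, against 1.04, 1.14, 0.959 and 0.937 with oil, a change of 1.12 ± 0.48 without overlap. The oil arrays of M21842_at and U53873cds_at themselves spread widely, and in both the second oil array was the highest.

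Across the 16 rat arrays, as a description, M21842_at correlated with U53873cds_at at r = 0.91 and with M14952mRNA_at at r = 0.81, and with rc_AA997806_at at r = -0.34. The arrays share species, chip and treatment groups. The same 3 probe sets correlated with the array's median over all probe sets at r = 0.85, 0.88 and 0.77, whereas rc_AA997806_at did so at r = -0.46. That median ran from 0.06 to 0.15 on the TCE arrays after 1 dose, against -0.04 to 0.02 on the oil arrays, and its part in the Apob values was not tested. Centring on it left the change of M21842_at at 6.37. With the Gapdh 3′ minus 5′ difference the correlations of the 3 were 0.02, -0.21 and 0.08. Those of rc_AA997806_at and M27440_at were higher, at 0.63 and 0.40. With that difference as a covariate, the change of rc_AA997806_at after 1 dose was -0.26 in place of -0.20. After repeated dosing its change was -0.09 in place of 0.12, a change of sign. Taking the mean of the gene's 5 probe sets in place of 1 gave rat Apob a change of 2.77 after 1 dose. The assignment of all 5 probe sets to Apob rests on the array's annotation and was not tested against sequence here.

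**Figure D4:**
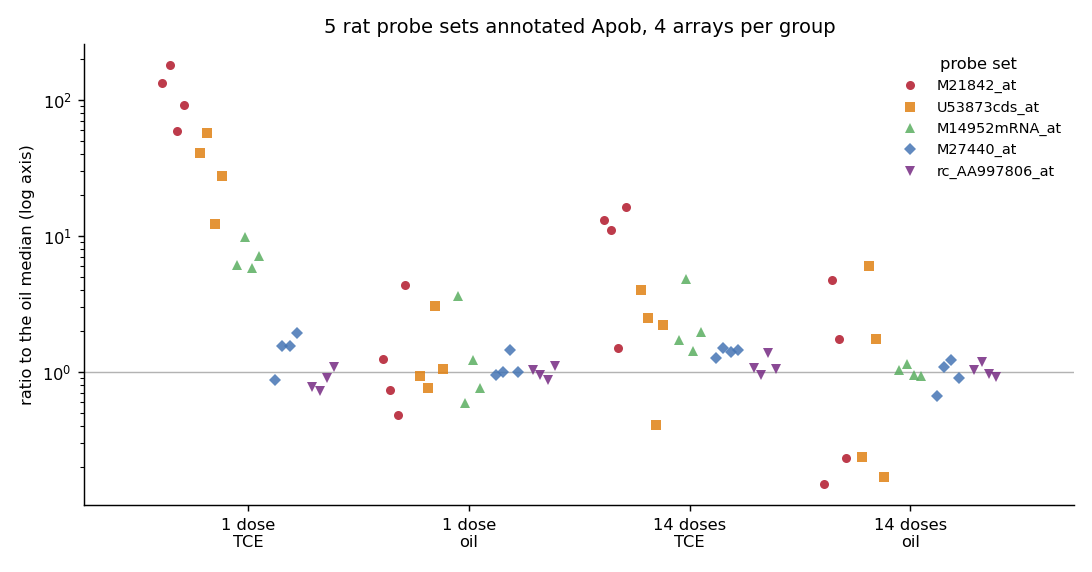
The 5 rat probe sets annotated as Apob, as the ratio to the oil median (y axis, log scale), by schedule and treatment (x axis), 4 arrays per group. After 1 dose M21842_at lies between 59.5 and 181 on TCE arrays and between 0.484 and 4.39 on oil arrays, while rc_AA997806_at lies between 0.726 and 1.11 on all 8.

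Among the proteins of high-density lipoprotein, 1 mouse Apoa2 probe set passed the threshold after 1 dose, and no other Apoa1 or Apoa2 probe set passed in any comparison. The mouse Apoa2 probe set with the smaller spread read 0.608, 0.609, 0.649 and 0.603 on TCE arrays, against 1.07, 1.01, 0.989 and 0.958 on oil arrays after 1 dose. These TCE arrays were tightly grouped and all below the oil arrays, with a change of -0.71 ± 0.13. After 14 doses the change was -0.40 ± 0.13, with TCE arrays of 0.732 to 0.861 just under oil arrays of 0.868 to 1.22. The other mouse Apoa2 probe set did not share this: its changes were -0.19 ± 0.29 and 0.15 ± 0.29, with overlapping groups. Mouse Apoa1 changed by -0.15 ± 0.15 and -0.33 ± 0.15 after 1 and 14 doses, and its groups overlapped at both schedules.

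Both rat Apoa1 probe sets had mean changes under 0. J02597cds_s_at changed by -0.43 ± 0.17 after 1 dose, with overlap, and by -0.38 ± 0.17 after 14, when TCE arrays of 0.664 to 0.909 lay under oil arrays of 0.943 to 1.01. M00001_i_at read 0.797, 0.490, 0.468 and 0.475 on TCE arrays, against 0.935, 1.06, 0.836 and 1.25 on oil arrays after 1 dose, a change of -0.90 ± 0.23 without overlap. After 14 doses it changed by -0.58 ± 0.23, with 1 TCE array inside the oil range. Rat Apoa2 changed by -0.38 ± 0.18 and -0.18 ± 0.18, with overlap at both schedules.

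No probe set of the small exchangeable members Apoc1 and Apoc3 passed the threshold. Mouse Apoc1, an inhibitor of lipoprotein uptake, changed by -0.29 ± 0.13 after 1 dose, with TCE arrays of 0.778 to 0.896 under oil arrays of 0.985 to 1.12, and by -0.20 ± 0.13 after 14. Rat Apoc1 changed by -0.12 ± 0.15 after 1 dose and lay at the oil mean after 14, both with overlap. Apoc3, an inhibitor of lipoprotein lipase, was measured in the rat alone, on 3 probe sets. Its rc_AI169758_at probe set read 0.681, 0.605, 0.672 and 0.608 with TCE, against 0.999, 1.001, 0.897 and 1.19 with oil after 1 dose. That was a change of -0.67 ± 0.17, and after 14 doses the change was -0.52 ± 0.17, without overlap at either schedule. The other Apoc3 probe sets changed by -0.30 ± 0.16 and -0.36 ± 0.16 after 1 dose and by -0.22 ± 0.16 and -0.20 ± 0.16 after 14.

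Apoe, the ligand of the low-density lipoprotein receptor, was the mouse member nearest 0, at 0.04 ± 0.15 after 1 dose and -0.13 ± 0.15 after 14. Its noisier mouse probe set spread from 0.190 to 2.35 on TCE arrays and from 0.182 to 1.46 on oil arrays after 14 doses, for changes of 0.41 ± 0.80 after 1 dose and -0.59 ± 0.80 after 14. In rats Apoe changed by -0.34 ± 0.15 after 1 dose and -0.21 ± 0.15 after 14 on S76779_s_at, with overlap. On X04979_at the changes were -0.26 ± 0.16 and -0.04 ± 0.16, also with overlap. Apoh, also called beta-2-glycoprotein I, binds phospholipid surfaces in plasma. In mice it read 0.692, 0.737, 0.740 and 0.641 on TCE arrays, against 1.10, 1.02, 0.956 and 0.983 on oil arrays after 1 dose. The TCE arrays were all lower, by -0.53 ± 0.14 after 1 dose and -0.63 ± 0.14 after 14. Rat Apoh changed by -0.22 ± 0.18 and -0.03 ± 0.18 on X15551cds_g_at, and by -0.06 ± 0.22 and -0.09 ± 0.22 on X15551cds_at, all with overlap. With X15551cds_g_at for the rat, the mouse minus rat differences were -0.31 ± 0.22 and -0.60 ± 0.22.

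Over the 16 mouse arrays the genes whose log2 ratios ran most like those of Apoa4 were Ddost (r = 0.95), Rpl13a (0.93), Cstb (0.93), Cops4 (0.92) and Copa (0.92), of 8250 genes. Among the members Apoe came first at r = 0.44 and Apoa2 last at r = -0.52. In the rat they were Prkar1a (0.88), Egfl7 (0.88), Cyp2f4 (0.87), Pfdn2 (0.86) and Srsf5 (0.85), of 4735 genes. There Apoa1 was the nearest member at r = 0.61, and Apob, on rc_AA997806_at, the farthest at r = -0.20. These are descriptions over arrays that share the treatment groups.

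Genes that build, remodel, take up or control lipoproteins were read from 6 lists, 68 genes in all, of which 50 were measured in mice and 35 in rats. The lists were chosen with earlier results of these data known. Their counts and p-values, here and below, are therefore description and no independent test. After 1 dose 3 of the 50 mouse genes rose and 10 fell (limma adjusted p under 0.05), and after 14 doses 0 rose and 11 fell. Of all mouse genes, 4.74% rose and 4.57% fell after 1 dose, and 2.39% and 9.42% after 14. At an unadjusted p under 0.05 the counts after 14 doses were 2 and 18, but the share of all genes at that threshold was not counted. Centring gave 4 and 4 after 1 dose and 1 and 6 after 14. The median change of the 50 genes was -0.19 and -0.22, beside -0.08 and -0.16 over all mouse genes. With the Gapdh difference as a covariate, which keeps every array, the counts were 0 and 0 after 1 dose and 0 and 13 after 14. After 1 dose 3 TCE arrays lay above a Gapdh difference of 1, and no oil array lay above 0.18. Covariate and treatment can hardly be told apart there, so the lost calls do not show that the changes were smaller. Without the arrays of Gapdh difference above 1, which leaves 1 TCE array at each schedule, 0 passed in either direction. Of the 13 calls after 1 dose, Lsr and Pdia3 passed without each array in turn, and of the 11 after 14 doses 5 did.

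Among 9 genes of lipoprotein assembly and secretion, 1 rose and 2 fell in mice after 1 dose and 3 fell after 14. Mttp, the large subunit of the transfer protein that loads lipid onto Apob, read 0.497, 0.505, 0.540 and 0.506 with TCE, against 0.801, 1.24, 0.714 and 1.199 with oil in mice after 1 dose. It fell by 0.91 ± 0.25 on the log2 scale (limma adjusted p = 0.0410). After 14 doses it read 0.281, 0.248, 0.454 and 0.294 with TCE, against 0.554, 0.950, 1.08 and 1.05 with oil, and fell by 1.501 ± 0.25 (limma adjusted p = 0.00388). Both times all 4 TCE arrays lay under all 4 oil arrays. Pdia3, a disulfide isomerase of the endoplasmic reticulum, fell by 1.12 ± 0.24 and 1.94 ± 0.24 (limma adjusted p = 0.0123 and 0.000744). Cideb, a lipid droplet protein involved in lipoprotein lipidation, fell by 0.39 ± 0.11 after 14 doses (limma adjusted p = 0.0401). Cidec, another lipid droplet protein, rose by 1.92 ± 0.53 after 1 dose (limma adjusted p = 0.0403). Its TCE arrays were uneven, at 7.21, 8.26, 1.53 and 1.56, against 1.40, 0.730, 1.27 and 0.530 on oil arrays.

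Of 7 other apolipoproteins measured in mice, 3 fell at each schedule and 0 rose. Apof, Apoc4 and Apoc2 fell by 0.68 ± 0.20, 0.51 ± 0.14 and 0.49 ± 0.13 after 1 dose (limma adjusted p = 0.0494, 0.0408 and 0.0375). Each of these 3 calls passed under 4 of 17 alternatives, and without 1 array in turn each passed in 1 of 8 fits. Apof, Apom and Clu fell by 0.88 ± 0.20, 0.72 ± 0.17 and 0.36 ± 0.10 after 14 doses (limma adjusted p = 0.0149, 0.0201 and 0.0403). Of 8 plasma enzymes and transfer proteins, Lcat, which esterifies cholesterol on high-density lipoprotein, fell by 0.96 ± 0.22 after 1 dose (limma adjusted p = 0.0158). Pla2g7, a lipoprotein-bound phospholipase, and Pon1, a paraoxonase of high-density lipoprotein, fell by 2.04 ± 0.54 and 0.57 ± 0.15 after 14 doses (limma adjusted p = 0.0289 and 0.0269).

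Of 9 receptors, Lsr, the lipolysis-stimulated receptor, rose by 0.91 ± 0.18 after 1 dose (limma adjusted p = 0.00768). Lrp1, a receptor for Apoe-bearing remnants, fell by 0.65 ± 0.17 and 0.69 ± 0.17 after 1 and 14 doses (limma adjusted p = 0.0322 and 0.0216), and Sdc1, a heparan sulfate proteoglycan that binds remnants, fell by 0.62 ± 0.13 after 14 (limma adjusted p = 0.0108). Of 15 transcription factors, Ppara, the fatty-acid-sensing nuclear receptor, rose by 0.56 ± 0.14 after 1 dose (limma adjusted p = 0.0271). Nr0b2, Nr1d1 and Rxra fell by 1.08 ± 0.29, 0.89 ± 0.20 and 0.54 ± 0.15 at that schedule (limma adjusted p = 0.0330, 0.0161 and 0.0379). Nr2f2 fell by 1.80 ± 0.33 after 14 doses (limma adjusted p = 0.00591). Neither of the 2 cholesterol efflux transporters measured passed the test.

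**Figure D5:**
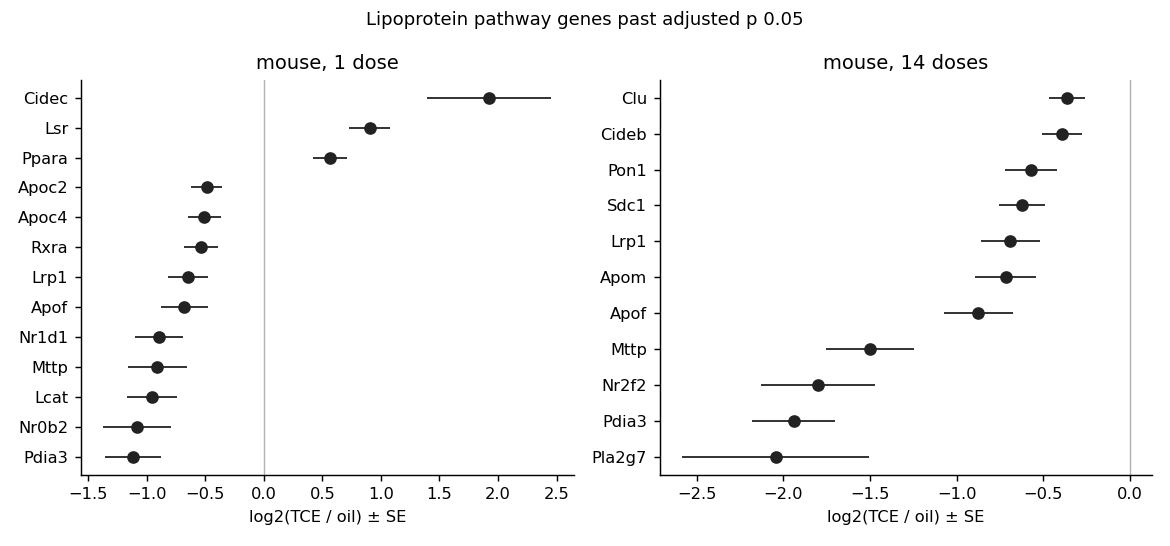
Mouse genes of the lipoprotein lists that passed a limma adjusted p of 0.05, as log2(TCE/oil) with SE (x axis), after 1 dose (left, 13 genes) and 14 doses (right, 11 genes). Cidec, Lsr and Ppara lie right of 0 after 1 dose, and all 11 genes after 14 doses lie left of it.

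Rats gave 0 calls among the 35 genes after 1 dose by limma, where 3 were higher and 3 lower at an unadjusted p under 0.05. After 14 doses 1 rose and 0 fell (2 lower at an unadjusted p under 0.05). It was Cd36, the fatty acid and lipoprotein scavenger receptor, at 16.4, 15.7, 1.99 and 10.0 with TCE, against 0.989, 2.59, 1.01 and 0.927 with oil. The third TCE array lay inside the oil range, and the change was 2.76 ± 0.54 (limma adjusted p = 0.0145). That call was lost without oil replicate 1 and without TCE replicate 2, at 2.65 and 2.47, with quantile normalization, at 2.36, and with the arrays of the comparison alone. It was also lost with the mean of the 2 Cd36 probe sets, at 1.49998, and the other probe set did not pass the threshold.

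Markers of hepatocytes, of intestinal epithelium and macrophages, which also make apolipoproteins, and of exocrine pancreas were read the same way. Of all mouse genes, limma called 4.74% higher and 4.57% lower after 1 dose, and 2.39% and 9.42% after 14. The rat shares were 1.16% and 0.528% after 1 dose, and 2.32% and 0.633% after 14. These lists too were chosen with earlier results known, and nothing is read from the counts. Of 6 intestinal epithelial genes, 0 were called in mice after 1 dose by limma, 1 was lower at an unadjusted p under 0.05, and their mean log2 ratio per array ran from -0.77 to 1.30 with TCE and from -0.82 to 0.62 with oil. Of 9 macrophage genes, whose cells make Apoe, 0 were called in mice after 1 dose by limma (5 lower at an unadjusted p under 0.05). After 14 doses 2 fell by limma, and 5 were lower at an unadjusted p under 0.05. The array means of those 9 ran from -0.66 to -0.45 with TCE and from -0.24 to 0.15 with oil after 1 dose, and from -0.91 to -0.43 and from -0.81 to 0.23 after 14. Of 6 hepatocyte genes 0 were called in mice after 1 dose by limma (1 lower at an unadjusted p under 0.05). After 14 doses 2 fell by limma, and 5 were lower at an unadjusted p under 0.05. The changes of the 6 then ran from -0.59 to -0.26. Their array means were -0.53 to -0.36 with TCE and -0.25 to 0.24 with oil. In rats 0 genes of these 3 lists were called by limma at either schedule, with 1, 1 and 2 hepatocyte, intestinal and macrophage genes lower at an unadjusted p under 0.05 after 1 dose, and 0, 0 and 3 after 14. No exocrine pancreas gene was called in any comparison by limma or at an unadjusted p under 0.05, but their mean ran up to 5.35 on a rat oil array after 1 dose, above the highest TCE array of that group at 0.48. The part of these marker genes in the apolipoprotein values was not tested, and no share of all genes at an unadjusted p was counted beside them.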

How the data were processed

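Liver RNA of 32 samples (16 mouse, 16 rat, 8 groups of 4) was measured on 1 Affymetrix array each. Signals were made with MAS5, per the submitters' processing notes, and the sources used here do not give the scaling of each array. The deposited values are ratios: within each species and schedule, the 4 oil values have a median of 1 for each probe set without a missing value (to within 0.0005), so each signal had been divided by its oil median, a step no label describes. The ratio hides signal levels and detection, and where the oil signal is low small differences give large ratios. Intensity, and so precision per probe set, is unknown, and the 4 arrays per group limit the precision.

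Ratios were put on the log2 scale and fitted with limma 3.58.1 (R 4.3.3): 4 group means per species, empirical Bayes, Benjamini-Hochberg adjustment over all probe sets but 66 mouse and 59 rat control probe sets, threshold 0.05. The probe set with the smallest spread within groups stood for a gene in gene counts. Genes shared by the species were fitted over 32 arrays. Array quality was compared by exact permutation. Pathway genes were named where past the threshold, at most 4 per list and comparison. Symbols come from the platform annotation: 10833 mouse and 7006 rat probe sets had 1 symbol, 396 and 308 several, and 1193 and 1426 none. The fit was tested on simulated data. Members, lists and tests were chosen with earlier results of these data known. No 2 arrays of a group were copies of one another, and replicate numbers did not pair the samples. The alternatives were quantile normalization, centring, log2(ratio + 1), the arrays of the comparison alone, array weights, blocking on replicate number, averaging probe sets per gene, the Gapdh difference as a covariate or a filter, and leaving out each array.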

Additional observations from a re-analysis of the deposited data

Results flagged for a closer look

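Of 104 groups of 4 arrays screened, 9 held an array set apart from the other 3 on the log2 scale (the gap to the nearest array against the range of the group), and chance alone sets about 1 in 20 groups apart. In rat Apob, M21842_at after 14 doses had TCE replicate 3 at 0.60, far under the other TCE arrays, and M27440_at had oil replicate 3 of the 1-dose group at 0.55. In mouse Apoa2, on the probe set with the smaller spread, TCE replicate 1 lay at -0.22 after 14 doses and TCE replicate 3 at -0.62 after 1 dose, both nearer to the oil arrays than the others. Mouse Apoa1 had oil replicate 1 of the 1-dose group at 0.26, and rat Apoa1, M00001_i_at, had TCE replicate 1 after 1 dose at -0.33. Rat Apoc1 had oil replicate 2 of the 14-dose group at -0.35 and TCE replicate 4 after 1 dose, which carried the Gapdh 5′ loss, at -0.36. Rat Apoe, S76779_s_at, had oil replicate 2 of the 1-dose group at -0.31. Rat TCE replicate 3 after 14 doses and mouse TCE replicate 3 after 1 dose also carried the loss, with Gapdh differences of 2.07 and 1.84. Mouse TCE replicate 1 after 14 doses, at -0.36, was the TCE array of its group without it. The other arrays flagged here did not carry the loss, and its part in these values was not tested.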

How the results depend on the processing

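Members were proposed with these contrasts known, so their pass counts describe only how the calls depend on processing. The mouse Apoa4 change after 1 dose stayed positive under all 17 alternatives and past the threshold under 16. It was 1.39 on log2(ratio + 1), a scale that compresses changes, and 1.80 to 2.53 under the others. It missed the threshold without the arrays of Gapdh difference above 1 (2.09), where 1 TCE array is left and is assumed to vary like the other groups. The rat Apoa4 change after 14 doses stayed negative and past the threshold under 10 of 17. It was -0.52 on log2(ratio + 1) and -1.80 to -1.15 under the others. The mouse Apob change after 14 doses passed under 15 of 17. It was -0.63 on log2(ratio + 1) and -2.11 to -1.28 under the others. M21842_at after 1 dose lay between 5.33 and 7.12 and passed under 15 of 16. U53873cds_at and M14952mRNA_at, past the threshold as reported, passed under 7 and 8 of 16 and stayed positive. Mouse Apoa4 after 14 doses passed with array weights (-1.09) and without TCE replicate 1 (-1.21), and under no other alternative. The within-array difference of Apoa4 moved in mice after 1 dose to 2.998 with the Gapdh covariate and to 1.58 on log2(ratio + 1), in rats after 14 doses to -0.46 on log2(ratio + 1), and reversed in mice after 14 doses to 0.0063 without the Gapdh arrays.

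In mice after 1 dose the 3 members called lower became 1 with centring, with the arrays of the comparison alone and with the Gapdh covariate, and 0 with quantile normalization and without the Gapdh arrays, which also took the 1 called higher to 0. Leaving out single arrays gave 1 to 2, with 1 without oil 1, 2 or 4 or TCE 3 or 4. In mice after 14 doses the 2 became 1 with centring and with the comparison's arrays alone, and 0 with quantile normalization and without the Gapdh arrays; single arrays gave 1 to 3, with 1 without oil 2 or TCE 2. In rats after 14 doses the 1 became 0 with quantile normalization, the Gapdh covariate, the comparison's arrays alone and without the Gapdh arrays, and 0 to 1 over single arrays, with 0 without oil 1, oil 4 or TCE 2. Averaging probe sets per gene gave 1 rat member higher after 1 dose, Apob.

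For pathway genes in mice after 1 dose, the 3 higher and 10 lower became 0 and 0 with quantile normalization, the Gapdh covariate or without the Gapdh arrays, 1 and 5 with the comparison's arrays alone, and 4 lower with centring. Single arrays gave 1 to 3 higher and 3 to 9 lower, and 2 of 13 calls, Lsr and Pdia3, held without each array in turn; every array but TCE 2 moved a count by over 1.5 times. After 14 doses the 11 lower became 6 with centring, 4 with the comparison's arrays alone and 0 with quantile normalization or without the Gapdh arrays, and 1 higher appeared with centring and with the mean of probe sets. Single arrays gave 6 to 10 lower (6 without oil 2, oil 4 or TCE 2, 7 without TCE 4), and 5 of 11 calls held throughout. In rats after 14 doses the 1 higher became 0 with the mean of probe sets, the comparison's arrays alone and quantile normalization, 0 to 1 over single arrays, and 1 lower appeared with array weights, with centring and without oil 3, the range over single arrays being 0 to 1. Losses with quantile normalization were not particular to these genes. Over all genes it left 35 higher and 11 lower calls in mice after 1 dose, and 6 and 1 after 14. In rats after 14 doses it left 3 and 0. The cause of these shifts was not tested.

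Replicate numbers correlated at -0.17 to 0.08 between TCE and oil arrays, so they were not taken as pairs. With the replicate block, the members lower in mice after 1 dose numbered 1 in place of 3, and pathway genes 1 higher and 4 lower in place of 3 and 10. With each replicate number once in both groups, the block cannot change a mean difference, so the sizes of changes say nothing here.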
